A study of Mus musculus with 4 samples.

Results

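Oxidative phosphorylation subunit genes were examined in the injured cortex of mice after stroke. Members were chosen by symbol: probes whose RefSeq accession maps to a symbol given to nuclear-encoded subunits of complex I (Nduf), complex II (Sdha to Sdhd), complex III (Uqcr), complex IV (Cox4 to Cox8) or complex V (Atp5), with the brightest probe standing for a gene. The array held 84 such genes on 113 probes, of 20832 genes with a symbol. Of these, 83 passed the filter on dim signal and were tested among 24579 features. The exception was Cox8c, a testis isoform, which was not well above background on any array in either channel. The symbol pattern leaves out Ndufab1, the acyl carrier protein that is also a complex I subunit, which is counted with the carriers and was at -0.15 (limma, adjusted p = 0.232). The choice of genes uses no measured value, but the probe that stands for a gene is chosen by its measured brightness. The rule was set with earlier results of these data known.

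The samples came from C57BL/6 mice aged 8 weeks, wild type or labelled Ndrg2 knockout, a gene expressed mainly by astrocytes in the brain. In both genotypes the left middle cerebral artery had been permanently occluded by electrocoagulation, and the cortex of that side was taken 24 h later. Each of 4 2-colour Agilent arrays held RNA of 1 knockout-labelled sample (Cy3) beside RNA of the wild-type sample with that replicate number (Cy5). No uninjured or sham-operated sample was among those analysed here, so the values compare genotypes after injury and do not show what injury itself did. The labels give no deleted exon and do not say that each sample was a separate animal, so p-values cover only how far these samples vary, and some of that may be technical.

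All values are log2 of knockout-labelled over wild type after loess normalization within each array, and a gene passed when limma's test over the 4 arrays gave a Benjamini-Hochberg adjusted p under 0.05 across all features. Every array had the same dye orientation, so a dye effect of a single probe cannot be told apart from genotype. Between 73.6 and 79.0% of spots were well above background in a channel, no spot was saturated, and the number of arrays limits the precision. Ndrg2 itself was at -0.22, -0.22, -0.18 and -0.11 on arrays 1 to 4. It fell by 0.18 ± 0.05 (SD, n = 4, limma, adjusted p = 0.0248). The call was kept in 10 of 17 alternative ways of processing, with values from -0.81 to -0.04. The difference of 0.18 is small and does not check the genotype, hence the term knockout-labelled. In a bulk sample, fewer cells of a type and less RNA per cell cannot be told apart.

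Oxidative phosphorylation is the last stage of respiration in mitochondria. Complexes I and II pass electrons from NADH and succinate to ubiquinone, complex III hands them on to cytochrome c, and complex IV gives them to oxygen, while complexes I, III and IV pump protons across the inner membrane. Complex V, the ATP synthase, uses the returning protons to make ATP, on which neurons depend heavily. Most subunits are encoded in the nucleus. Those encoded by mitochondrial DNA were matched to no probe by accession and were not analysed here.

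The subunit genes did not move as a group. Of the 83 tested, 13 rose (15.7%), 8 fell (9.64%) and 62 did not pass, where 8.63% of all features rose and 12.7% fell. The median of the members was -0.01, against -0.02 for all features, and 44 of the 83 lay below 0. No member changed by as much as 1.5-fold. The largest change was 1.35-fold, and the median size among the 21 that passed was 0.21 on the log2 scale. All 21 had the same sign on all 4 arrays. Over the 83 tested members, passed or not, that share was 42.2%, against 43.8% of all features. Fewer passed with 3 arrays: 4 rose and 4 fell without array 1, and 4 and 4 without array 2. Without array 3 the counts were 4 and 5, and without array 4 they were 9 and 4. The shares of all features shrank too, to 3.29 to 5.13% higher and 4.96 to 7.79% lower.

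**Figure D1:**
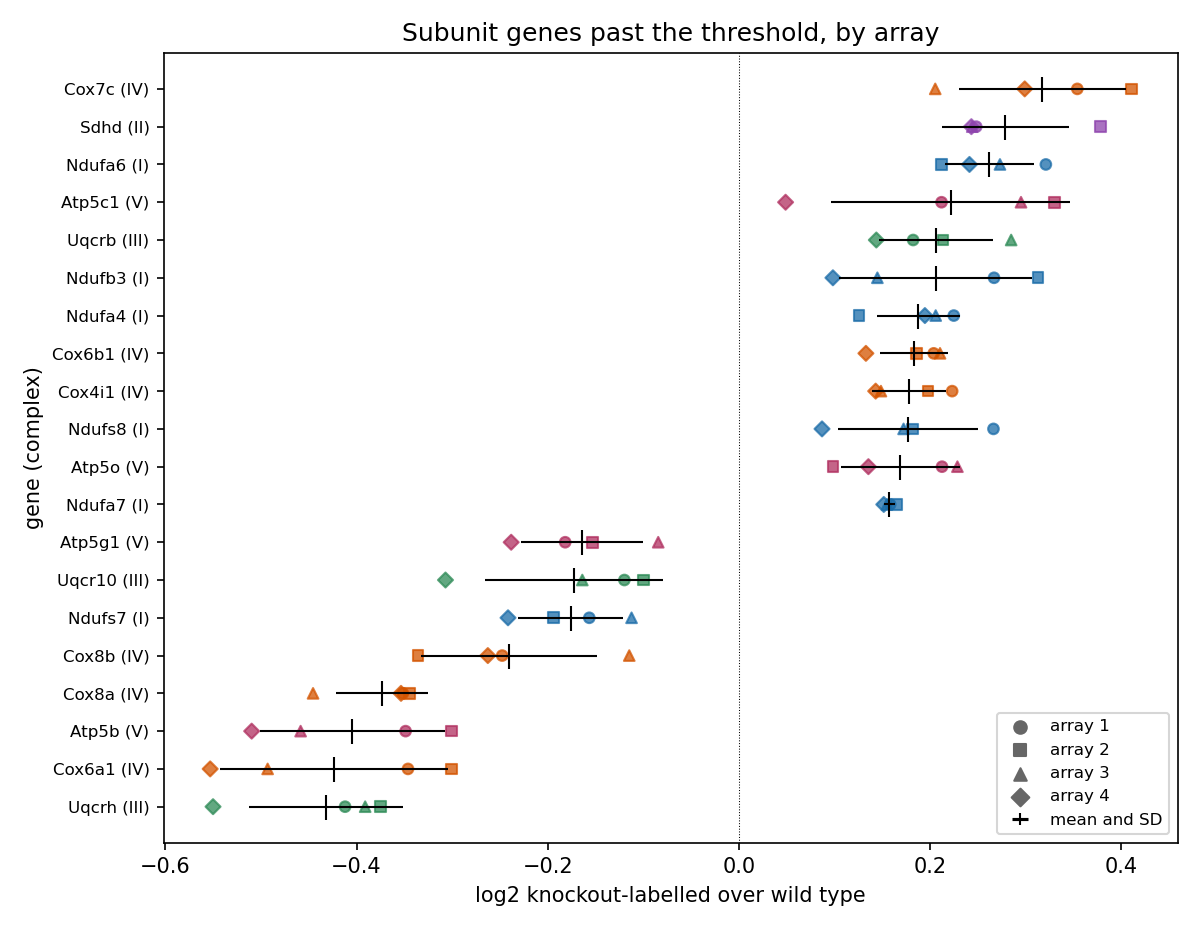
Subunit genes past the threshold, 20 of the 21, with log2 of knockout-labelled over wild type on the x axis and the gene and its complex on the y axis; symbols are the 4 arrays, black ticks the mean and black lines the SD. Every gene lies on 1 side of 0 on all 4 arrays, from Uqcrh at -0.43 to Cox7c at 0.32; the 12 genes on the right all lie below 0 once loess is replaced by median centring.

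The comparison with probes of like brightness bears directly on these counts, because subunit genes were among the brightest on the array. The median member was brighter than 96.4% of features, and 51 of the 83 lay in the brightest of 20 equal classes. Features that are not members followed a course with brightness that loess had not removed. Their median was 0.04 at a mean log2 intensity of 14 to 15, -0.01 at 15 to 16 and -0.19 above 16, where 55.1% of them fell and 1.59% rose. Members too were lowest above 16, at a median of -0.25. From 13 to 14, 14 to 15 and 15 to 16 their medians were 0.05, 0.02 and -0.03. The other features were at 0.01 from 13 to 14, so their median rose to the next band while that of the members fell. Between 13 and 14, 5 of 11 members rose and none fell, beside 16.9% and 12.5% of the other features. Between 14 and 15, 4 of 14 rose and none fell, where 21.9% of the others rose. Between 15 and 16, 2 of 41 rose and 3 fell, beside 14.2% and 16.8%, and above 16, 1 of 8 rose and 4 fell. Set against the median of the 200 other features nearest in brightness, 41 members were higher and 42 lower, and the median of the differences was -0.0013.

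Set against features of like brightness, the balance was similar under other scalings, but the members' own counts were not. Loess removes a smooth course with brightness, and so does that comparison, so similar results with and without loess were largely built in. With median centring and no loess, the median of all features moved from -0.02 to -0.18 and that of the members to -0.57. Of the 83 members, 80 were lower and 1 higher, the dim isoform gene Cox7b2, beside 53.6% lower and 25.8% higher among all features. The 200 features nearest in brightness then had a median of -0.56, and the members differed from them by a median of -5e-04, with 40 above and 43 below. With the scanner software's own ratios the members had a median of 0.03 and their neighbours in brightness of 0.02, with 48 members above and 35 below. With these ratios 6 members rose (7.23%) and 4 fell (4.82%), beside 6.87% and 7.13% of all features.

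**Figure D2:**
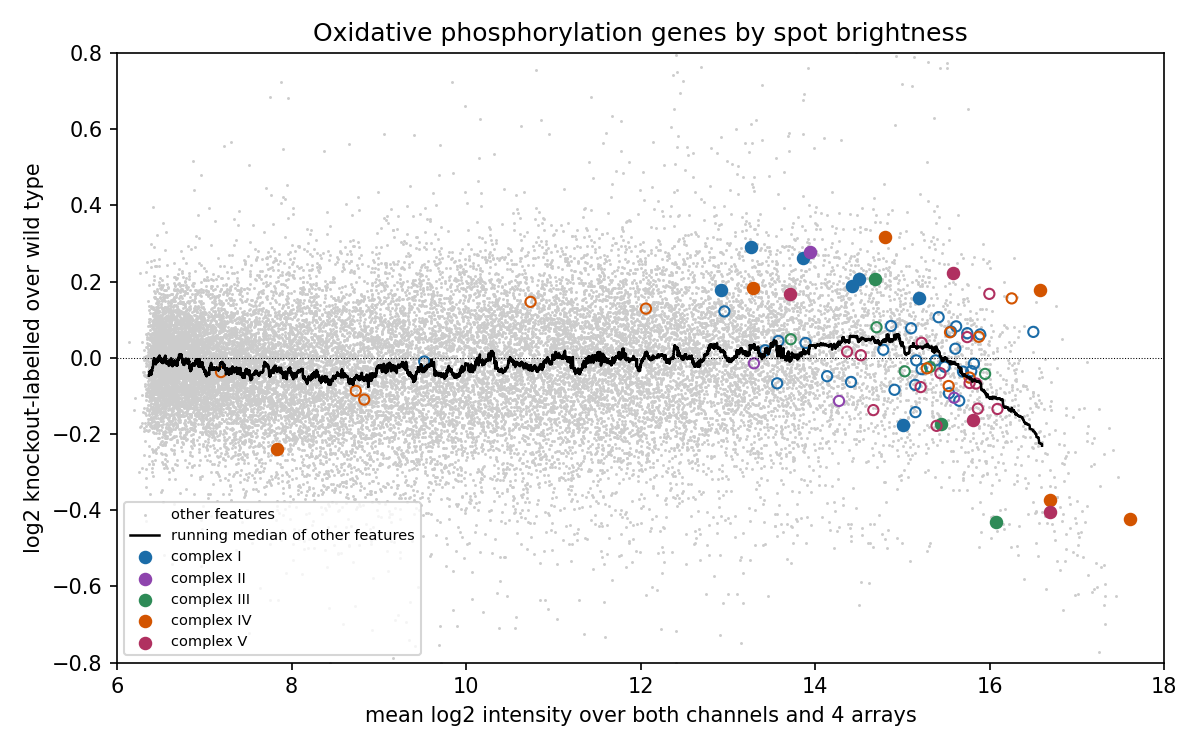
Mean log2 intensity (x axis) against log2 of knockout-labelled over wild type (y axis) for each of the 83 subunit genes, coloured by complex and filled where past the threshold; grey points are all other features and the black line is their running median. The line falls above an intensity of 15 and ends before the brightest features; beyond 16, Uqcrh at -0.43 lies below it and Cox4i1 at 0.18 above it, and Cox8a, Atp5b and Cox6a1 lie past its end at -0.37, -0.40 and -0.42; 47 features beyond 0.8 in either direction are outside the frame.

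The promoters of 4 members are shown because these had the largest changes in each direction among members with a single RefSeq promoter window, upstream part clear of any other gene. Each is the 250 bases before the start of the gene, 5′ to 3′, from RefSeq on GRCm38.p6. Capitals mark matches, on either strand, to the core of the site of nuclear respiratory factor 1 (NRF1), which is GCGCA and GCGC with 1 base of any kind between them, to CCGGAAG, the core of ETS factors such as GABP, or to AANATGGC, the core for YY1. These factors are known regulators of subunit genes. Cox6a1 (chr5:115348959-115349208, strand minus) and Atp5b (chr10:128083057-128083306, strand plus) fell. Cox7c (chr13:86046796-86047045, strand minus) and Ndufa6 (chr15:82354292-82354541, strand minus) rose, both turning below 0 with median centring.
Cox6a1: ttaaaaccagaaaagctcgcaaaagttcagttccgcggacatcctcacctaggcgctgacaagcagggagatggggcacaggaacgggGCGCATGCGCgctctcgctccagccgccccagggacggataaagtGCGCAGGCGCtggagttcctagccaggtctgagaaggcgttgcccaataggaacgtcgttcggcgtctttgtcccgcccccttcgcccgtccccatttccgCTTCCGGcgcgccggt
Atp5b: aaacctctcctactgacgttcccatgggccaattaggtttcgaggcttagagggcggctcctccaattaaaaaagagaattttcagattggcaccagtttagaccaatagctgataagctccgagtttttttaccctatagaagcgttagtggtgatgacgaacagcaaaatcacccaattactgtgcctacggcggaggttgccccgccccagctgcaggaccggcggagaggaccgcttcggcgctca
Cox7c: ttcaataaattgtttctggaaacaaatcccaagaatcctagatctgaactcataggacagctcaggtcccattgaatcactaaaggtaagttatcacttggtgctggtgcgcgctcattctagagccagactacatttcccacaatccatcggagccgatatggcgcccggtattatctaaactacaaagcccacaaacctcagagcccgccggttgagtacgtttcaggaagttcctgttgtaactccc
Ndufa6: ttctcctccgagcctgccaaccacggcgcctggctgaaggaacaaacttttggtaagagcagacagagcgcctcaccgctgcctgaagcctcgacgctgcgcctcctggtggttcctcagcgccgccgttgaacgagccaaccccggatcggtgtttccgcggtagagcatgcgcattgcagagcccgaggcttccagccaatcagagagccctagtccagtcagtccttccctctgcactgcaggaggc
Cox6a1 held a pair of NRF1 matches, at bases -162 to -153 and -117 to -108 from the start, and an ETS match at -16 to -10. Atp5b, Cox7c and Ndufa6 held none of these letters in the window. The table held 73 windows for 68 of the 83 members. The NRF1 letters were in 14 of the 73 (19.2%), against 3.74% of all 32851 windows, the ETS letters in 16.4% against 6.91%, and the YY1 letters in 8.22% against 3.91%. Among windows of members that rose, 2 of 12 held the NRF1 letters, among those that fell 1 of 8, and among those that did not pass 11 of 53, and no test was made of these shares. A match is a description and not a binding site.

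Complex I, the NADH dehydrogenase, had 37 genes tested, with a median of 0.02. Of these 6 rose (16.2%), 1 fell (2.70%) and 30 did not pass, beside 8.63% higher and 12.7% lower among all features. Of the 37, 23 lay in the brightest of 20 classes, where 12.3% of other features rose and 26.4% fell. In class 19, the next in brightness, 20.4% of other features rose and 10.4% fell. By their symbols, Ndufa4, which rose, and Ndufa4l2 are counted here. With the scanner software's ratios 2 of the 37 rose (5.41%) and none fell, beside 6.87% and 7.13% of all features. With median centring none rose and 36 fell (97.3%), beside 25.8% and 53.6%. Of the 7 core electron-transfer subunits of complex I, 2 rose and 1 fell. Ndufs8, which carries iron-sulphur clusters, stood at 0.27, 0.18, 0.17 and 0.09 on arrays 1 to 4 and rose by 0.18 ± 0.07 (limma, adjusted p = 0.0338), a call kept in 7 of 17 alternatives. Ndufs7, which holds the last cluster before ubiquinone, stood at -0.16, -0.19, -0.11 and -0.24 and fell by 0.18 ± 0.05 (adjusted p = 0.0284). Of the 4 core subunits that did not pass, 2 are given here. Ndufs1, the largest, was at 0.08 ± 0.04 and Ndufv1, which binds NADH and the flavin, at -0.04 ± 0.06. With median centring Ndufs8 turned to -0.20.

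Of 28 accessory subunits of complex I, which surround the core, 3 rose and none fell, over a range of -0.14 to 0.26. Ndufa6 stood at 0.32, 0.21, 0.27 and 0.24 and rose by 0.26 ± 0.05 (limma, adjusted p = 0.00885). Ndufb3 rose by 0.21 ± 0.10, with arrays 1 and 2 at 0.27 and 0.31 and arrays 3 and 4 at 0.14 and 0.10. Ndufa7 rose by 0.16 ± 0.01, the smallest SD among the members that passed, at 0.15 to 0.16 on every array. Ndufa4, named for complex I but found as a subunit of complex IV, rose by 0.19 ± 0.04 (adjusted p = 0.0213). Ndufa4l2, its paralog known to be induced by hypoxia, was at -0.07, 0.12, 0.03 and -0.11, with no common sign and an adjusted p of 0.909 (limma).

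Complex II, the succinate dehydrogenase of the citric acid cycle, is encoded wholly in the nucleus. Sdhd, a membrane anchor that binds haem, stood at 0.25, 0.38, 0.24 and 0.24 on arrays 1 to 4. It rose by 0.28 ± 0.07, or 1.21-fold (limma, adjusted p = 0.00886), with array 2 above the other 3. The second anchor, Sdhc, was at -0.01 ± 0.09, the flavoprotein Sdha at -0.11 ± 0.15 and the iron-sulphur subunit Sdhb at -0.10 ± 0.18, and none of these passed. A second, dimmer probe of Sdhb stood at 0.26 and one of Sdhc at 0.18, both past the threshold, so for these genes the direction depended on the probe.

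Complex III, the cytochrome bc1 complex, gave the largest fall among the members. Uqcrh, the hinge subunit at which cytochrome c docks, stood at -0.41, -0.37, -0.39 and -0.55. It fell by 0.43 ± 0.08, or 1.35-fold (limma, adjusted p = 0.00256), and lay 0.33 below features of like brightness. Its second probe was at -0.36 and also passed. RefSeq lists pseudogenes named after Uqcrh, and also after Cox7c and Atp5c1 among the genes that passed, and since probe sequences were not used here the values of these 3 genes can include signal from such copies. Uqcr10, a small subunit beside the Rieske protein, fell by 0.17 ± 0.09 (adjusted p = 0.0453), a call kept in 5 of 18 alternatives, with its other probes at -0.16, which passed, and 0.15, which did not. Uqcrb, a ubiquinone-binding subunit, rose by 0.21 ± 0.06 (adjusted p = 0.0188), with its other probes at 0.12 and 0.19. The catalytic Rieske protein gene Uqcrfs1 was at 0.08 ± 0.10, and the core proteins Uqcrc1 and Uqcrc2 at 0.05 and -0.04, none past the threshold.

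Complex IV, cytochrome c oxidase, is where oxygen is consumed. Of 17 tested genes, 3 rose (17.6%), 3 fell (17.6%) and 11 did not pass, with a median of -0.03. Among all features 8.63% rose and 12.7% fell. With the scanner software's ratios 2 of the 17 rose and 2 fell (11.8% each), beside 6.87% and 7.13% of all features. With median centring 1 of the 17 rose (5.88%) and 15 fell (88.2%), beside 25.8% and 53.6%. Cox6a1 is the general form of a regulatory subunit. It stood at -0.35, -0.30, -0.49 and -0.55 and fell by 0.42 ± 0.12 (limma, adjusted p = 0.00471). Cox8a, the smallest general subunit, stood at -0.35, -0.34, -0.45 and -0.35 and fell by 0.37 ± 0.05 (adjusted p = 0.00299), but its second probe, a dimmer one, stood at -0.07 and did not pass. Features as bright as these genes had medians of -0.23 and -0.21, so these genes lay 0.19 and 0.17 lower. The 200 nearest are mostly dimmer at this end of the range: 65 of those for Cox8a and none of those for Cox6a1 were brighter than the gene. Within 0.25 of its log2 intensity, a window added after seeing the data, Cox8a had 100 other features with a median of -0.23, of which 27 were lower than it, whereas Cox6a1 had 4 such features, too few to compare with. With each of 100 brightness classes centred, Cox6a1 stood at -0.21 and Cox8a at -0.17, both still past the threshold. With the scanner software's ratios Cox6a1 stood at -0.21 and did not pass (limma, adjusted p = 0.103).

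Cox4i1, which contains the site where ATP regulates the enzyme, went against its neighbours in brightness. It stood at 0.22, 0.20, 0.15 and 0.14 and rose by 0.18 ± 0.04 (limma, adjusted p = 0.0240), where the 200 features nearest in brightness had a median of -0.19. The difference of 0.36 was the largest of any member. Cox5a, a subunit that binds thyroid hormone, was at 0.19, 0.30, 0.23 and -0.10, with array 4 apart, and did not pass (adjusted p = 0.146); without replicate 4 it stood at 0.24 and passed (adjusted p = 0.0361). Cox7c, a small membrane subunit, stood at 0.35, 0.41, 0.21 and 0.30 and rose by 0.32 ± 0.09, or 1.25-fold (adjusted p = 0.00758), while 2 other probes each stood at 0.11 and did not pass. Cox6b1, which lies between the monomers of the dimer, rose by 0.18 ± 0.04 (adjusted p = 0.0216). With median centring Cox4i1 was at -0.55, Cox7c at -0.23 and Cox6b1 at -0.22.

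Several complex IV subunits have isoforms for other tissues or conditions. Of these 6 tested isoforms, 1 fell: Cox8b, the heart and muscle form, at -0.25, -0.34, -0.11 and -0.26, by 0.24 ± 0.09 (limma, adjusted p = 0.0171), from a dim probe at a mean log2 intensity of 7.84. Cox4i2, the form induced by low oxygen, was at -0.11 ± 0.11, Cox6a2, the muscle form that parvalbumin interneurons also use, at 0.13 ± 0.13, and Cox7a1, another muscle form, at 0.15 ± 0.12. The differences of log2 ratio within arrays were taken for 10 pairs of isoforms across the complexes, and they are given as descriptions, with no test. Cox4i1 lay above Cox4i2 on all 4 arrays, by 0.29 ± 0.11. Cox6a1 lay below Cox6a2 by 0.55 ± 0.06, with values of -0.48 to -0.62. Cox6b1 lay above Cox6b2, a testis form, by 0.27 ± 0.09. Cox7a2 lay below Cox7a1 by 0.17 ± 0.08, Cox8a below Cox8b by 0.13 ± 0.14 and Ndufa4 above Ndufa4l2 by 0.20 ± 0.14. These pairs also kept 1 sign on all 4 arrays, while the pair of Cox7b and Cox7b2 did not. The members of these pairs differed in brightness, so they also sat at different places on the course described above.

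Complex V had 17 genes tested, of which 2 rose, 2 fell and 13 did not pass, with a median of -0.07. Both directions were at 11.8%, beside 8.63% higher and 12.7% lower among all features. With the scanner software's ratios 1 of the 17 rose and 1 fell (5.88% each), beside 6.87% and 7.13% of all features. With median centring all 17 fell, beside 53.6% of all features. Atp5b, the catalytic beta subunit, stood at -0.35, -0.30, -0.46 and -0.51 and fell by 0.40 ± 0.10, or 1.32-fold (limma, adjusted p = 0.00402). Its 200 nearest features in brightness had a median of -0.21; of 100 within 0.25 of its log2 intensity, with a median of -0.23, 23 were lower than it. Its partner Atp5a1, the alpha subunit, was at -0.20, 0.02, -0.14 and -0.22 and did not pass (adjusted p = 0.109). Atp5c1, the gamma subunit that forms the turning shaft, stood at 0.21, 0.33, 0.29 and 0.05 and rose by 0.22 ± 0.13 (adjusted p = 0.0323), with a second probe at 0.19. The head therefore held 1 subunit gene that fell and 1 that rose, its smaller subunits Atp5d and Atp5e being at 0.0067 and 0.04.

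In the membrane part of the ATP synthase, 3 genes encode the same mature c subunit of the proton-driven ring. Atp5g1 stood at -0.18, -0.15, -0.08 and -0.24 and fell by 0.16 ± 0.06 (limma, adjusted p = 0.0376), a call kept in 7 of 17 alternatives. Atp5g2 and Atp5g3 were at -0.07 and -0.13 and did not pass, and the within-array differences between the 3 genes did not keep 1 sign on all 4 arrays. A second, dimmer probe of Atp5g2 stood at 0.17 and passed, so for this gene the direction depended on the probe. Of the peripheral stalk, which holds the head still, Atp5o rose by 0.17 ± 0.06 (limma, adjusted p = 0.0344), a call kept in 5 of 17 alternatives. Atp5h was at 0.17 and Atp5j at -0.14, both just outside the threshold (limma, adjusted p = 0.0514 and 0.0537), and Atp5pb was at 0.02. A second probe of Atp5h stood at -0.08 and did not pass, so its direction depended on the probe. Of the 5 small membrane subunits none passed, Atp5k being lowest at -0.18 (limma, adjusted p = 0.0522), with a second probe at 0.02. A second probe of Atp5j2 stood at 0.35 and passed, against -0.07 for the brightest.

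For 22 members a second kept probe gave a check. In 12 of the 22 both brightest probes lay on 1 side of 0, and the second was the higher one in 17. The median gap was 0.07. Among 1088 other genes with a brightest probe of log2 intensity 13 or more, the second probe was higher in 59.3%, by a median of 0.04. In a fit over all kept probes, 7 of the second probes passed as higher and 2 as lower, the latter those of Uqcrh and Uqcr10. No gene had its 2 brightest probes past the threshold in opposite directions.

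The arrays differed in where the members lay. On arrays 1 and 2, 52 and 59 of the 83 members were above 0, with medians of 0.04 and 0.05. On arrays 3 and 4, 37 and 24 were above 0, with medians of -0.02 and -0.08. The median of all features was -0.02 on every array. Complex V had the lowest median of the complexes on all 4 arrays, and was also the brightest. Against features of like brightness its median difference was -0.03, where that of complex II was -0.07. With the scanner software's ratios the median of complex V was 0.013, above those of complexes II (-0.0032) and III (0.0016). The spread between arrays, with an SD of 0.06 to 0.07 for the complex medians, was as large as the distance of any complex from 0. Across the 83 members the arrays correlated at 0.77 to 0.88, a description over genes that share a probe and a brightness on each array, beside 0.41 to 0.73 over all features.

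**Figure D3:**
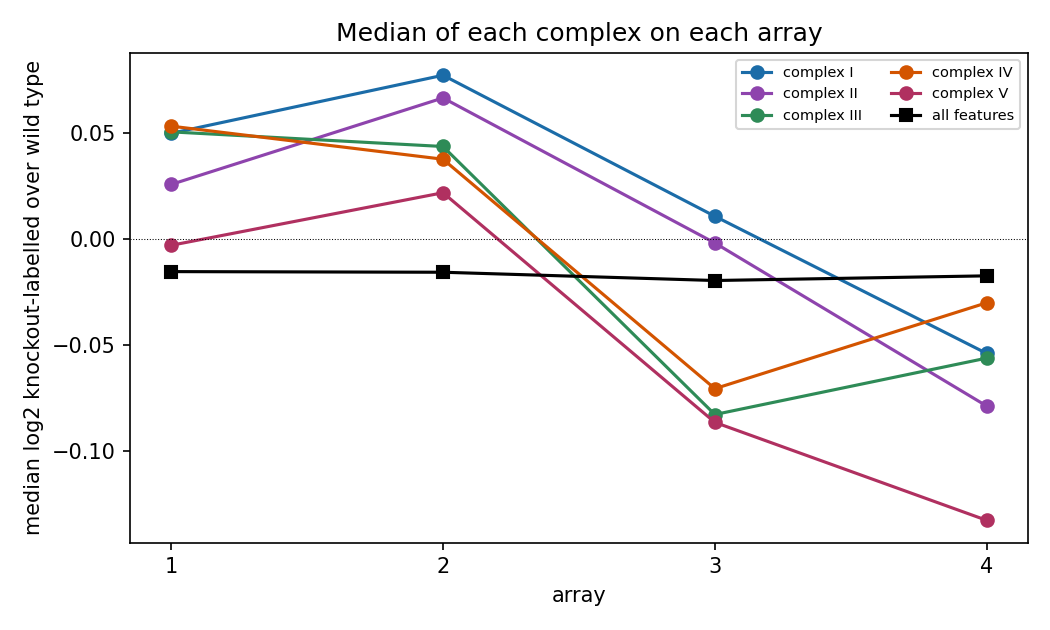
Median log2 of knockout-labelled over wild type (y axis) of the tested genes of each complex on arrays 1 to 4 (x axis), with all features in black. All features stay at -0.02, while the medians of complex I to complex V lie between -0.13 and 0.08 and are lower on array 4 than on array 2; the arrays are replicates and have no order.

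Other genes of the pathway were counted by the lists they belong to, beside 8.63% higher and 12.7% lower among all features. With the scanner software's ratios these shares of all features were 6.87% and 7.13%, and with median centring 25.8% and 53.6%. Of 49 assembly factors, which fold, fit and load cofactors into the complexes, 17 rose (34.7%), 5 fell and 27 did not pass, with a median of 0.06, or 0.08 above features of like brightness; with the scanner software's ratios 11 rose and 3 fell, whereas with median centring 5 rose and 32 fell. Of 19 citric acid cycle enzymes 5 rose, 1 fell and 13 did not pass, with a median of 0.08, and all 19 were called lower with median centring. Of 77 mitochondrial ribosomal protein genes 18 rose and 6 fell, with a median of 0.04, counts that became 3 and 3 with the scanner software's ratios and 0 and 72 with median centring. These lists were less bright than the subunit genes, with median log2 intensities of 11.8, 13.7 and 12.9 against 15.2.

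Among the assembly factors Ndufaf7, a methyltransferase of complex I assembly, stood at 0.20, 0.29, 0.35 and 0.30 and rose by 0.28 ± 0.06 (limma, adjusted p = 0.00807). Bcs1l, which inserts the Rieske protein into complex III, fell by 0.29 ± 0.08 (adjusted p = 0.00898). Lrpprc, which stabilizes mitochondrial messenger RNA, stood at -0.35, -0.21, -0.36 and -0.37 and fell by 0.32 ± 0.07 (adjusted p = 0.00614). Of the citric acid cycle Suclg1, a succinyl-CoA ligase subunit, rose by 0.27 ± 0.05 (adjusted p = 0.00866). The isocitrate dehydrogenase subunit genes Idh3b and Idh3g rose by 0.19 ± 0.03 and 0.16 ± 0.01. Citrate synthase, Cs, was not among the rule's choices and is named after its value was seen, as the single gene of that list that fell, by 0.17 ± 0.10. Of the mitochondrial ribosome Mrpl12 and Mrpl57 rose by 0.23 ± 0.04 and 0.28 ± 0.13, and Mrpl27 fell by 0.25 ± 0.06.

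Of 27 electron carriers, exchangers and ubiquinone synthesis genes, 3 rose and 3 fell (11.1% each, beside 8.63% and 12.7% of all features). With the scanner software's ratios 2 of the 27 rose and 1 fell, beside 6.87% and 7.13% of all features. With median centring 1 of the 27 rose and 23 fell, beside 25.8% and 53.6%. Ucp2, an uncoupling carrier found in microglia, fell by 0.34 ± 0.08 (limma, adjusted p = 0.00588) and Slc25a4, the ADP and ATP translocator of brain and muscle, by 0.24 ± 0.09 (adjusted p = 0.0166). Coq6, a ubiquinone synthesis enzyme, rose by 0.28 ± 0.10. Of 19 regulators of mitochondrial biogenesis 2 rose (10.5%) and 4 fell (21.1%); the counts were 2 and 2 with the scanner software's ratios and 1 and 15 with median centring. Tfam, the packaging and transcription factor of mitochondrial DNA, stood at 0.18 to 0.24 on the 4 arrays and rose by 0.21 ± 0.02 (adjusted p = 0.0142). Gabpb1, the partner of the ETS factor GABP, fell by 0.28 ± 0.08 (adjusted p = 0.0107) and Polg2, a subunit of the mitochondrial DNA polymerase, by 0.20 ± 0.02. Nrf1, Gabpa and Yy1 are named here because motifs for NRF1, GABP and YY1 are given above. Nrf1 fell by 0.20 ± 0.10 (limma, adjusted p = 0.0336). Gabpa, the ETS part of GABP, was at -0.02 and Yy1 at 0.04, and neither passed (limma, adjusted p = 0.813 and 0.592).

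**Figure D4:**
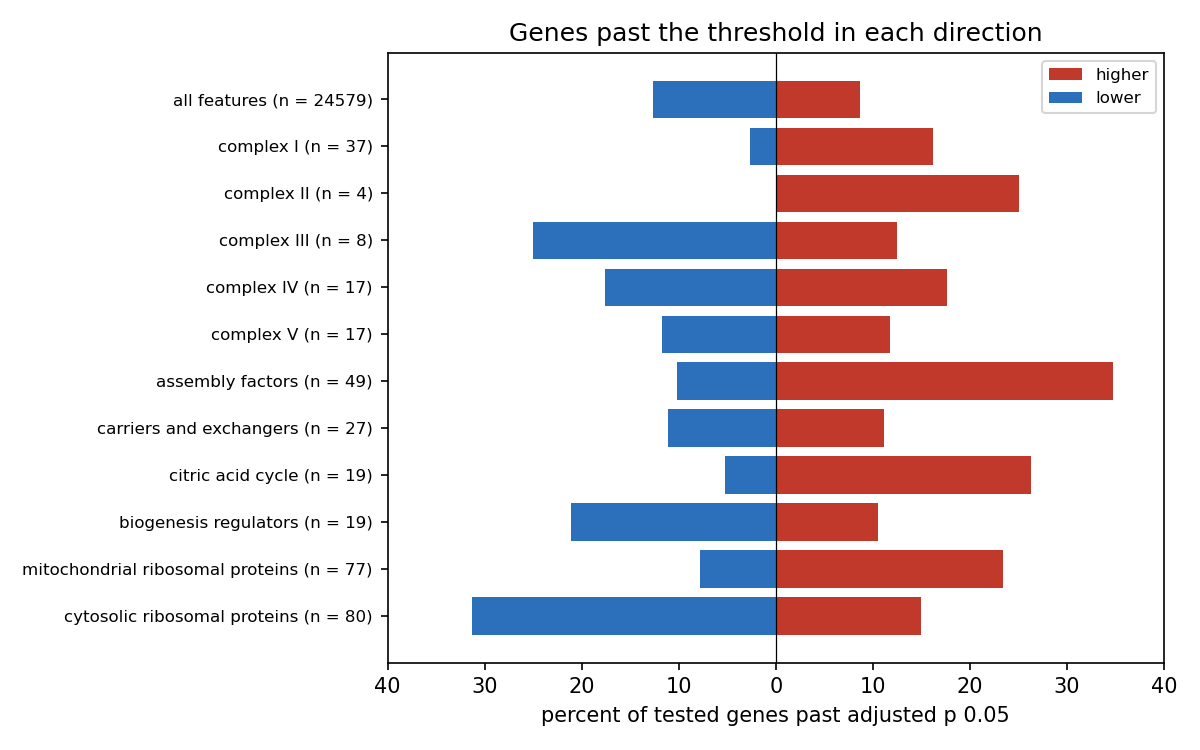
Percent of tested genes (x axis) that rose (red, right) or fell (blue, left) at an adjusted p under 0.05 in each list (y axis, with the number tested). All features are at 8.63% higher and 12.7% lower, complex I at 16.2% and 2.70%, and assembly factors at 34.7% and 10.2%. With the scanner software's ratios complex I is at 5.41% and 0%, beside 6.87% and 7.13% of all features. Replacing loess by median centring leaves 10.2% of assembly factors higher and 65.3% lower, beside 25.8% and 53.6% of all features.

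Markers of the cell types in the cortex are given because each carries its own mitochondria. Their counts stand beside 8.63% higher and 12.7% lower among all features. With the scanner software's ratios these shares of all features were 6.87% and 7.13%, and with median centring 25.8% and 53.6%. Of 14 neuron markers 1 rose and 3 fell, with a median of -0.03 and array medians of -0.06 to 0.04, but with the scanner software's ratios 2 rose and none fell. Of 11 astrocyte markers none rose and 3 fell (median -0.10), of 10 microglia markers none rose and 6 fell (median -0.24), and of 9 neutrophil and monocyte markers none rose and 3 fell (median -0.22). Of 10 oligodendrocyte markers 2 rose, with array medians of -0.25 to 0.37, and of 9 endothelial markers 1 fell (median -0.12), Ly6c1, which is also 1 of the 3 neutrophil and monocyte markers that fell. With the scanner software's ratios 2 astrocyte and 3 microglia markers fell, and no oligodendrocyte, neutrophil and monocyte or endothelial marker passed. With median centring the medians of these 6 lists were between -0.63 and -0.30. Of 8 muscle markers none passed (median -0.02), but 3 were higher and 1 lower with median centring, and 1 was higher with the scanner software's ratios. The part of these cell types in the values of the subunit genes was not tested.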

How the data were processed

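The authors' scanner output came from Feature Extraction 11.0.1.1 by its headers and 10.7.3.1 by the submitters' processing notes. Deposited median spot and background values are linear intensities. The software's processed signals, already corrected for background and dye, give the deposited log10 ratio of Cy5 over Cy3. The series matrix holds log2 values, deposited without a stated scale, that equalled log2 of processed Cy5 over Cy3 for 39030 probes with 1 spot, so their sign was turned here. Other deposited columns are flags of 0 or 1.

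Here, median signals were background-corrected with normexp (offset 50) and normalized by loess (span 0.3) in limma 3.58.1 (R 4.3.3). Control spots had weight 0, and 139 to 186 outlier spots per array were left out. Probes well above background on at least 3 of 4 arrays in either channel were kept, 30274 of 39429. Accessions matched symbols of GRCm38.p6 for 27427 probes (69.6%). Each log2 ratio was tested against 0 with lmFit and eBayes, the array being the block that pairs its samples; 5231 of 24579 features (21.3%) passed. Fits were checked on simulated data. The members and lists were chosen with earlier results of these data known. Named genes are catalytic subunits, isoforms, up to 5 members of smallest p per complex and direction, up to 3 genes per other list, and Ndrg2. Any other gene named (isoform partners, subunits of the same structure, genes just outside the threshold, probes that disagree) was chosen after its values were seen. Some items are not reported here.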

Additional observations from a re-analysis of the deposited data

Results flagged for a closer look

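In 2 of 38 members examined, a single array lay far from the rest: its gap to the closest array, divided by the range of all 4, was past the limit of Dixon's test. About 1 gene in 20, here 1.9, would do so by chance. For Sdhd the ratio was 0.962, with 0.38 on array 2 against 0.24 to 0.25 on the others. For Cox8a it was 0.911, with -0.45 on array 3 against -0.34 to -0.35.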

How the results depend on the processing

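Of the 21 members that passed, Uqcrh and Atp5b kept their calls under every alternative run for them. Sdhd and Ndufa6 changed theirs with median centring alone, where both passed as lower. Cox8a lost its call with its second probe alone. The calls kept least often were those of Uqcr10 (5 of 18 alternatives), Atp5o (5 of 17), Ndufs8 and Atp5g1 (7 of 17 each). Leaving out 1 array left between 4 and 9 members higher and 4 to 5 lower. The shares of all features there were 3.29 to 5.13% and 4.96 to 7.79%. No replicate block (the 8 channels as unpaired samples) left 9 and 6 members, with 15 of the 21 calls unchanged, beside 5.13% and 6.36% of all features. The scanner software's log ratios and the series matrix values, which are the same numbers, gave 6 members higher and 4 lower. Among all features they gave 6.87% higher and 7.13% lower. Complex medians were then 0.07 (IV) and 0.013 (V). By complex I to V, 2, 1, 0, 2 and 1 were higher and 0, 0, 1, 2 and 1 lower. Median centring gave 1 higher and 80 lower, a median of -0.57 over all members and of -0.55, -0.51, -0.61, -0.54 and -0.66 for complexes I to V, beside 25.8% higher and 53.6% lower among all features. It turned Ndufs1 to -0.47, Ndufs8 to -0.20, Sdhd to -0.18, Uqcrfs1 to -0.45, Uqcrc1 to -0.39, Cox4i1 to -0.55, Cox5a to -0.54, Cox6a2 to -0.20, Ndufa6 to -0.19, Ndufa4 to -0.32, Ndufb3 to -0.31, Ndufa7 to -0.43, Uqcrb to -0.33, Cox7c to -0.23, Cox6b1 to -0.22, Atp5c1 to -0.40 and Atp5o to -0.27, as features of like brightness also moved. The mean of all kept probes gave complex medians of 0.079 (II) and 0.0067 (V). Of alternatives chosen after seeing the data, 100 brightness classes gave a complex IV median of 0.035. The second probe of 22 members, also chosen after seeing the data, gave 8 higher and 2 lower, with a median of 0.10. This fit held second probes alone, so its count differs from that of the fit over all kept probes. Among all features with a second probe 12.1% were higher and 7.13% lower, with a median of 0.02. The members' second probes gave medians of 0.10, 0.22, 0.093 and 0.074 for complexes I, II, IV and V. Sdhb was at 0.26 and Sdhc at 0.18. Fewer genes were tested with second probes. For the counts over all members and the medians of the complexes, the other alternatives stayed within 1.5 times or 1 SD of the array medians. The 4 arrays limit the precision, and the brightest probes lie where loess leaves a residual course.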

Other observations

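Genes for cytosolic ribosomal proteins, the other large set of very bright transcripts on the array, also went both ways. Of 80 tested, 12 rose (15%), 25 fell (31.2%) and 43 did not pass, beside 8.63% and 12.7% of all features. The median of the 80 was -0.05, against -0.06 for features of like brightness. With 20 brightness classes centred the counts were 14 and 17, beside 9.6% and 10.1% of all features. With the scanner software's ratios the counts were 8 and 4, beside 6.87% and 7.13%. With median centring they were 1 and 77, beside 25.8% and 53.6%. Rpl23 stood at -0.47, -0.62, -0.49 and -0.50 on arrays 1 to 4 and fell by 0.52 ± 0.07 (SD, n = 4; limma, adjusted p = 0.00173). Rpl19, named after its value was seen, stood at 0.24 to 0.28 and rose by 0.26 ± 0.02 (adjusted p = 0.00736).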
